A study of Mus musculus with 2 samples.

Results

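The genes described here are the 81 cytosolic ribosomal protein genes among the 12432 genes of the deposited table, 0.652% of its rows. They were chosen by symbol alone: every Rpl or Rps symbol with a number (with a letter or paralogue ending where present), the stalk genes Rplp0, Rplp1 and Rplp2, and Rpsa, leaving out symbols marked as pseudogenes by a -ps ending and the Rps6k kinases. Of the 81, 77 are annotated as protein coding, 31 for the small subunit, 43 for the large subunit and 3 for the stalk. The other 4, Rpl6l, Rps12l1, Rps3a2 and Rps3a3, are annotated as processed pseudogenes, which are copies of a spliced messenger RNA set back into the genome. The genes Rpl24, Rpl41 and Rps27, and the paralogues Rpl3l, Rpl10l, Rpl39l and Rps4l, were not analysed here. Fau, which encodes a ribosomal protein as a fusion, falls outside the symbol rule and is given as a companion.

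The cells were single CD4 T cells that bind the model peptide 2W1S, sorted from the spleen and lymph nodes of C57BL/6 mice whose gut had been colonized with Candida albicans engineered to express that peptide. The series' title names Klf2, a transcription factor of quiescent and recirculating T cells. Both samples, a March capture of 82 cells and an April capture of 96 cells on the Fluidigm C1 instrument, carry the same strain, tissue and treatment (CA-2W1S colonization), so they are replicates 1 and 2 of 1 group. No age is given, no uncolonized animals were analysed here, and the labels do not say how many mice gave each capture, so the spread between captures may be technical. Column names also show 4 date-like names, called runs here: Mar1 (25 cells) and Mar17 (57 cells) in March, and Apr13 (48 cells) and Apr21 (48 cells) in April. The labels do not say what separates the runs within a capture.

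Cytosolic ribosomes translate messenger RNA into protein. Small subunit proteins surround the decoding site, large subunit proteins surround the site where peptide bonds form, and the stalk recruits elongation factors. Each mature ribosome holds about one copy of most of these proteins, and vertebrate ribosomal protein mRNAs typically start with an oligopyrimidine tract (a TOP motif) through which mTOR and LARP1 regulate their translation together. Ribosomal protein genes have left many processed pseudogenes in mammalian genomes, some with a coding sequence identical to that of the parent gene.

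Levels below are log2 of a TPM-like value plus 1, where a difference of 1 is a doubling for values well above 1, and "linear" means the value before the log. TPM-like values are scaled by transcript length, so levels can be compared roughly between genes. This does not hold where near-identical copies take part of a gene's signal, as described below. The number of reads behind a value is unknown. All 178 cells had a value for at least 1 Cd3 gene, the T cell receptor's signalling chains. Cells had between 2927 and 6990 genes detected (a value above 0). In 3 cells, all of run Mar1, mitochondrially encoded genes took over 50% of the signal. The mean over the 81 genes was below 5 in 6 cells, 4 of Mar1, 1 of Mar17 and 1 of Apr13, where 19 to 32 of the 81 genes were at 0 and the mitochondrial share was 23.4% to 93.9%. All 3 Cd3 genes were detected in each of those 6 cells. The next cell had a mean of 5.53. The median correlation between members and the correlation with the mitochondrial share are also given without these 6 cells, and the Klf2 differences of the members without the 3 cells above and without run Mar1. All other values include all cells unless stated.

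Ribosomal protein genes were among the most abundant messages of these T cells. Their median level, over the means of the 81 genes, was 8.85, against 0.75 over all 12432 genes. Of the 100 genes of highest mean level in the table, 43 were ribosomal protein genes. A value above 0 was found in all 178 cells for 21 of them and in at least 90% of cells for 65, while 16 were detected in fewer. The median detection was 97.8% of cells for these genes and 34.3% over all genes. The levels formed a plateau with a tail: 57 of the 81 had a mean of at least 8 and 14 had a mean under 6. The 10 members of highest mean linear value held 32.2% of the members' signal.

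**Figure D1:**
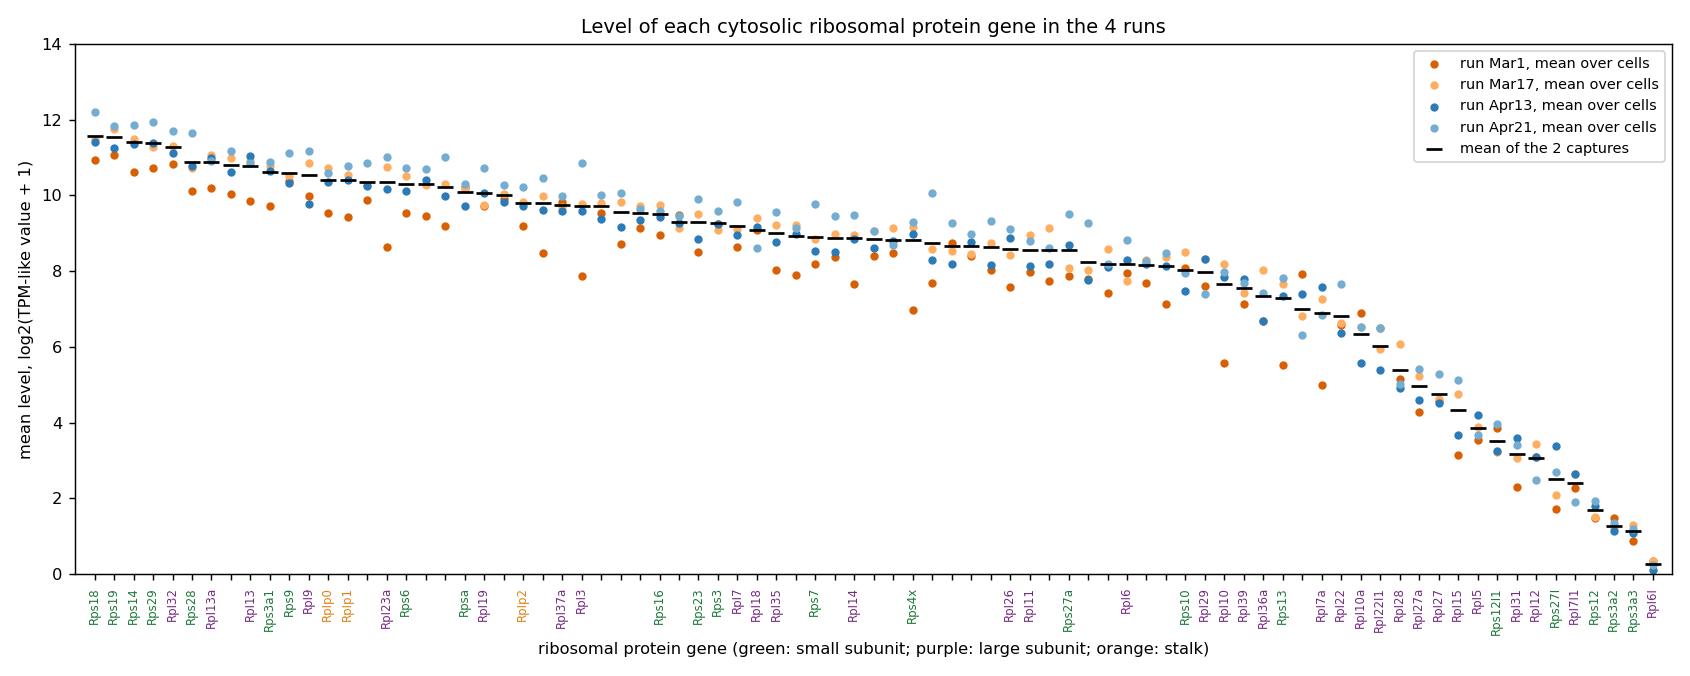
Mean log2 level (y axis) of each of the 81 ribosomal protein genes (x axis, ordered by the mean of the 2 captures, with the genes named in the text labelled) in each of the 4 runs, each run's dot being a mean over its cells. Levels fall slowly from Rps18 to Rpl29 and then steeply, and run Mar1 is often the lowest of the 4 dots.

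In the small subunit, Rps18, a protein of the head of the subunit, had the highest level of all 81 genes, with 11.33 ± 2.20 in March and 11.80 ± 1.33 in April (mean ± SD over cells, as below). Its run means were 10.94 in Mar1, 11.50 in Mar17, 11.41 in Apr13 and 12.20 in Apr21. Rps19, a head protein whose human gene is mutated in Diamond-Blackfan anaemia, had 11.56 ± 1.57 in March and 11.54 ± 1.24 in April. Rps14, of the platform, had 11.22 ± 1.94 in March and 11.61 ± 1.30 in April, and Rps29, a small zinc-binding protein, had 11.10 ± 2.22 in March and 11.67 ± 1.12 in April. The means of these 4 neighbours in the order differed by less than 1 SD over cells in both captures. That SD is a spread over single cells, the order of the means was not tested, and no order is claimed. Rps28 and Rps3a1 were also among the 10 highest members, at means of 10.87 and 10.61 over both captures. Rps6, the substrate of S6 kinase, had 10.21 ± 3.22 in March and 10.43 ± 2.40 in April. Rpsa, also known as a laminin receptor, had run means of 10.22 in Mar1, 10.17 in Mar17, 9.71 in Apr13 and 10.29 in Apr21. Rps3, which sits at the mRNA entry and also has roles outside the ribosome, had 9.14 ± 2.29 in March and 9.42 ± 1.62 in April. All 3 were well inside the plateau. Rps4x, the X-linked form of this small subunit protein, was detected in every cell, with run means of 6.99 in Mar1, 9.16 in Mar17, 8.98 in Apr13 and 9.29 in Apr21. Mar1 lay lowest for this gene.

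In the large subunit, Rpl32 had the highest level, with 11.17 ± 2.10 in March and 11.40 ± 1.04 in April. Rpl13a, known also for translational control in inflammation, had 10.80 ± 1.51 in March and 10.94 ± 1.18 in April, and Rpl13 had 10.59 ± 2.85 in March and 10.94 ± 1.54 in April. Rpl9 and the small subunit's Rps9 stood just behind the 10 highest genes, at 10.53 and 10.59 over both captures. Rpl3, which lies near the peptidyl transferase centre, had 9.20 ± 3.39 in March and 10.23 ± 2.15 in April, and its run means were 7.87 in Mar1, 9.78 in Mar17, 9.58 in Apr13 and 10.87 in Apr21. Rpl11, which binds Mdm2 in nucleolar stress, had 8.65 ± 2.38 in March and 8.48 ± 2.36 in April. Its partner in that role, Rpl5, had only 3.79 ± 2.31 in March and 3.94 ± 2.98 in April, though it was detected in 92.7% of cells. Rpl10, Rpl39 and Rpl36a, all X-linked, had means of 7.66, 7.55 and 7.34 over both captures, each with 13 or 14 cells at 0. Of the stalk genes, Rplp0, the base of the stalk, had 10.37 ± 1.96 in March and 10.46 ± 1.68 in April. Its partner Rplp1 had 10.20 ± 2.25 in March and 10.60 ± 1.48 in April, and Rplp2 had 9.63 ± 2.21 in March and 9.98 ± 1.63 in April. The means of the 3 stalk genes thus lay within 1 SD over cells of each other, and their order was not tested.

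The tail held 16 genes detected in under 90% of cells: Rpl6l, Rps12, Rps27l, Rps3a2, Rps12l1, Rps3a3, Rpl31, Rpl22l1, Rpl7l1, Rpl28, Rpl12, Rpl27a, Rps13, Rpl27, Rpl7a and Rpl15. The 4 annotated pseudogenes were among them. Rpl6l had the lowest level of all 81 genes, with a mean of 0.27 and 144 of 178 cells at 0. Rps3a2 and Rps3a3 had means of 1.28 and 1.15, against 10.61 for the parent gene Rps3a1. Rps12l1, at 3.52, was instead above its parent Rps12, at 1.69. Rps12, which encodes a protein of the small subunit's beak, was at 0 in 119 of 178 cells. Rpl31 was at 0 in 47 cells, Rpl12 in 29, Rpl27a in 25, Rpl27 in 22 and Rpl15 in 18.

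For many of the low genes, near-identical copies elsewhere in the genome carried more signal than the gene's own row. Each protein-coding member's coding sequence was compared with the transcripts of all other genes in the table, and a copy was counted at 90% identity or more over at least 70% of the coding sequence. There were 351 such copies of 68 of the 77 protein-coding members, 11 of them annotated as protein coding and the rest mostly as processed pseudogenes. The 4 pseudogene members are themselves among these copies. Reads from a gene and an identical copy cannot be told apart where they match, so how signal fell between them depends on the authors' read assignment, which is not given in the sources used here. For 11 members the copies held over 50% of the summed linear value, among them Rpl31 (94.6%), Rpl15 (94.5%), Rpl12 (93.2%), Rpl27 (92.0%), Rpl27a (89.0%), Rps12 (88.7%), Rpl5 (87.0%), Rps13 (60.4%), Rps23 (59.1%) and Rpl10a (50.1%). Copies held 10% to 50% for 16 members and at most 10% for 50.

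The first 60 bases of coding sequence show how little separates a low row from a high one. Rpl31 (mm10 chr1:39367842-39371911, plus strand) and Rpl31-ps8 (chr15:90764279-90764656, minus strand) are identical over all 375 coding bases, and so are Rps12 (chr10:23785183-23787275, minus strand) and Rps12-ps3 (chr19:59322290-59322783, plus strand) over 396 and Rpl5 (chr5:107900502-107909005, plus strand) and Gm15500 (chr7:114705217-114706235, minus strand) over 891. The copies lie on other chromosomes than the parents. Each line below holds for both the gene and its copy.
Rpl31 and Rpl31-ps8: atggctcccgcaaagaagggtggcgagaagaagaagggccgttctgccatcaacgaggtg
Rps12 and Rps12-ps3: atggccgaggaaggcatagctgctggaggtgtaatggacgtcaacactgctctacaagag
Rpl5 and Gm15500: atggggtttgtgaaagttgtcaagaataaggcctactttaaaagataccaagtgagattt
Rpl37a (chr1:72711290-72713813, plus strand) and Gm4149 (chr13:75644896-75645171, plus strand) differ at 1 of 276 coding bases. This window covers coding bases 168 to 227, with the differing base in capitals.
Rpl37a: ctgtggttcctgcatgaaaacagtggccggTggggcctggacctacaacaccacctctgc
Gm4149: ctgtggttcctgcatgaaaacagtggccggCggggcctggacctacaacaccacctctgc
The substitution, gene first and counted from 1 at the A of the start codon, is T198C.

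With the copies added, the tail genes Rpl31, Rpl12, Rpl27a, Rps13, Rpl27 and Rpl15 reached a mean of at least 8, and the other protein-coding genes of the tail, Rps12, Rpl7a, Rpl22l1, Rpl28, Rps27l and Rpl7l1, did not. Rpl31, whose own mean was 3.19, came to 8.44 with its 7 copies, and its detection went from 73.6% to 94.9% of cells. Rps12 went from 1.70 to 7.33, and in 102 of the 119 cells where its own row was at 0 a copy had a value. Rpl12 went from 3.04 to 8.65, Rpl15 from 4.34 to 9.37, Rpl27 from 4.77 to 9.29 and Rpl27a from 4.98 to 9.01. Rpl5 went from 3.87 to 6.99. Among the 77 protein-coding members, those with a mean below 6 went from 10 to 3, those detected in under 90% of cells from 12 to 4, and the SD of their mean levels from 2.30 to 1.70. The 3 that stayed below 6 were Rpl28, Rps27l and Rpl7l1. The 4 that stayed under 90% were these 3 and Rpl22l1.

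**Figure D2:**
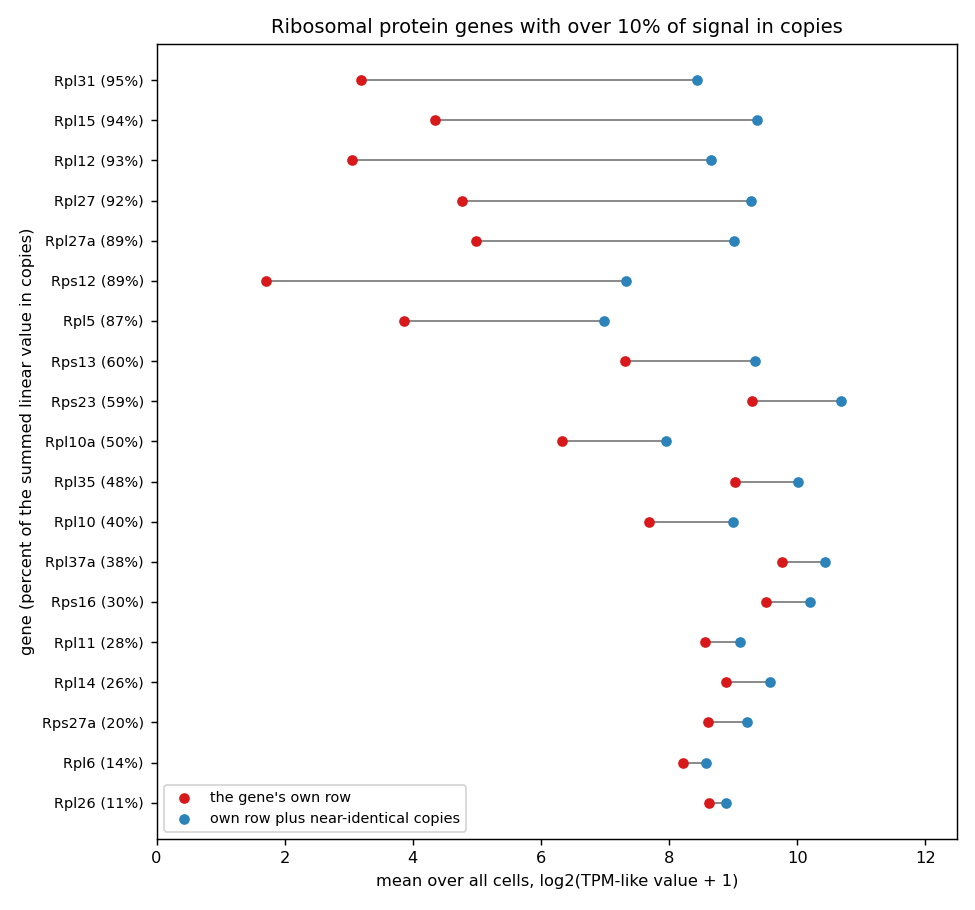
Mean log2 level over 178 cells (x axis) of 19 of the genes with over 10% of their summed signal in near-identical copies (y axis, with that percent), from the gene's own row (red) and after adding the copies (blue). The 7 genes from Rpl5 to Rpl31 move from levels below 5 to levels of 6.99 or more.

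Rows outside the symbol rule held further ribosomal protein signal. Rps27rt, annotated as protein coding on chromosome 9 and identical to the 252 coding bases of Rps27, had a mean of 12.95 and was detected in all cells. It ranked 5 of the 12432 genes, above every one of the 81 members. Gm10076, annotated as a long non-coding RNA on chromosome 14 and holding all 75 coding bases of Rpl41, had a mean of 9.55 and was detected in 97.2% of cells. Both rows were looked up because of their match to Rps27 and Rpl41 after their levels had been seen.

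Among the paralogues, Rpl7l1 and Rps27l have no such copy, and the single copy of Rpl22l1 held 2.92% of its summed signal. Rpl22l1 encodes a close relative of Rpl22, which is known for its role in T cell development and can repress Rpl22l1. Rpl22 had 6.62 ± 3.59 in March and 7.02 ± 3.30 in April, and Rpl22l1 had 6.11 ± 4.11 in March and 5.95 ± 4.23 in April. Both were detected in 126 cells, Rpl22 alone in 41, Rpl22l1 alone in 6 and neither in 5. Their Spearman rho over cells was 0.0400 in March (82 cells) and 0.0946 in April (96 cells), too weak to read an order from sparse values. Rpl7l1, a relative of Rpl7 that acts in ribosome assembly, had 2.53 ± 2.79 in March and 2.28 ± 2.64 in April, where Rpl7 had 8.98 ± 2.95 in March and 9.39 ± 2.35 in April. Rps27l, a p53-responsive relative of Rps27, had 1.97 ± 3.33 in March and 3.04 ± 3.90 in April and was at 0 in 102 cells. Rpl28, a large subunit protein with 4 copies, had 5.79 ± 3.26 in March and 4.98 ± 3.49 in April, with 34 cells at 0. Its copies held 1.39% of its summed signal, so it remained low with them.

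Within a cell, the 81 genes together took a median of 11.3% of the signal, from 0.183% to 23.4%. The medians were 11.4% in Mar1, 12.1% in Mar17, 10.2% in Apr13 and 12.0% in Apr21. The mean share was 12.0% in March and 11.3% in April, or 11.6% ± 0.452 (SD, n = 2 captures). Without run Mar1 the median was 11.2%. The copies added a median of 2.10% of the signal. The small subunit's share over that of the large subunit and stalk had a median of 0.973, with run medians from 0.938 to 1.03 and quartiles over all cells of 0.849 and 1.12. The cell furthest from balance, at 3.95, was in Mar1.

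The 4 runs overlapped widely for most members. Comparing the captures was not a question of the study, and the month is handled as a batch and was not tested. Mean levels were higher in April for 57 of 81 members and lower for 24, with a median difference of 0.22; over all genes 54.8% were higher, with a median of 0.0314. Both April runs lay above both March runs for 13 members and below them for 3. Over all 12432 genes these patterns were found for 23% and 14.7%, so the members' shares of 16.0% and 3.70% lie below the background in both directions. Among the members with the largest difference upward were Rps27a, which encodes a ubiquitin fusion, Rps27l, Rpl3, Rpl26 and Rpl6. Rps27a had run means of 7.87 in Mar1, 8.09 in Mar17, 8.69 in Apr13 and 9.51 in Apr21, so its April runs were both higher. Rpl3 overlapped between captures, with Apr21 its highest run. Downward, the largest differences were those of Rpl28, Rps10, Rpl10a, Rpl36a, Rpl12 and Rpl18. Rpl28 had run means of 5.16 in Mar1, 6.07 in Mar17, 4.92 in Apr13 and 5.04 in Apr21, and Rps10 had 8.08 in Mar1, 8.50 in Mar17, 7.48 in Apr13 and 7.95 in Apr21; these 2 did not overlap between captures, and the other 4 did.

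Over cells, ribosomal protein genes varied together to a modest degree. The median Spearman rho over all 3240 pairs of members was 0.216 in March (82 cells) and 0.121 in April (96 cells). Among the 65 members found in 90% of cells or more it was 0.255 and 0.149. Over all pairs of the 948 other genes with that detection it was 0.0478 and 0.0330, and over the 86 other genes with a mean of at least 8 it was 0.0765 and 0.00528. The 13 mitochondrially encoded genes, a second group with a shared source, had 0.272 and 0.269. In March 94.4% of member pairs were positive, against 64.4% of pairs of those 948 other genes; in April these shares were 84.2% and 60.9%. By run the members' median was 0.351 in Mar1, 0.150 in Mar17, 0.117 in Apr13 and 0.104 in Apr21. Pairs within the small subunit had 0.227 and 0.139, pairs within the large subunit and stalk 0.214 and 0.10, and pairs between them 0.215 and 0.128. Pairs across the subunits thus had values between those within each subunit. Without the 6 cells of low mean ribosomal level, the members' median, as the mean of the captures, was 0.122 instead of 0.169. All these correlations are descriptions: cells of a run are not independent samples, and abundant genes are measured with less noise, so no p is given.

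The members that followed the others most closely were Rps29, Rps18, Rps23, Rps19, Rpl32 and Rps7, of which 5 belong to the small subunit. The median rho with the other 80 members was 0.365 and 0.184 for Rps29 in March and April, and 0.312 and 0.232 for Rps18. The members that followed least were Rpl7l1 (-0.00835 and -0.0568), Rps27l (0.0172 and -0.0388), Rps12 (0.0487 and 0.00321), Rpl31 (0.134 and 0.00970), Rpl6l (0.124 and 0.0234) and Rpl29 (0.163 and 0.0104). All but Rpl29 were at 0 in over 20% of cells, and across the 81 genes the mean level and the median rho went together (Spearman 0.709 in March and 0.641 in April, over genes). Rpl29, a large subunit protein with a mean level of 7.98, was the one gene of the 6 with an abundant own row. For Rps12 and Rpl31 the own row held a small part of the summed signal, with 88.7% and 94.6% in copies. With the mean log2 value of the 81 genes in a cell, the copies of Rps12 had rho of 0.427 and 0.351, and its own row 0.0935 and 0.130. For Rpl31 these were 0.290 and 0.174 for the copies and 0.308 and 0.0567 for its own row. The pair of highest rho in both captures was the gene Rps3a1 with its pseudogene Rps3a3, at 0.702 and 0.612, which share most of their sequence. The stalk partners Rplp1 and Rplp2 had 0.270 and 0.272.

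**Figure D3:**
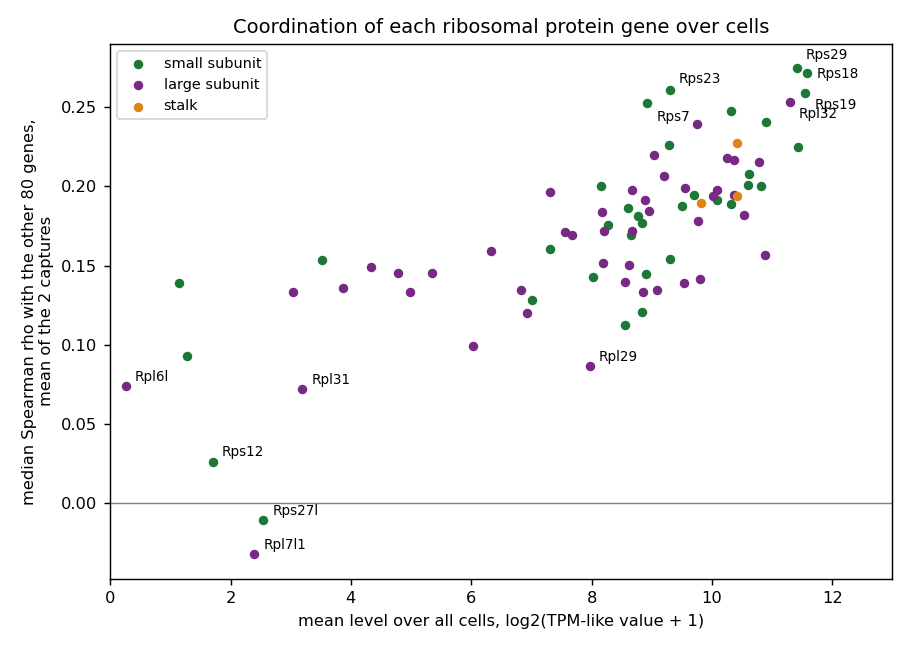
Median Spearman rho of each ribosomal protein gene with the other 80 over cells, as the mean of the 2 captures (y axis), against its mean log2 level over 178 cells (x axis), colored by subunit, with the 6 lowest and 6 highest genes named. Genes of higher level have higher rho, and Rpl7l1 and Rps27l lie at or below 0.

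Other genes of the translation machinery followed the mean ribosomal level to different degrees. The mean ribosomal level is the mean log2 value of the 81 genes in a cell, and rho is given for March and then April. Of the 4 ribosome components outside the symbol rule, all positive in both captures, 3 had 0.497 and 0.365 (Rack1, a scaffold on the small subunit), 0.362 and 0.278 (Fau, a fusion of a small subunit protein) and 0.249 and 0.282 (Rpl36al). Of 15 elongation factors and other mRNAs known to carry a TOP motif, 15 were positive in March and 14 in April, with medians of 0.310 and 0.220. Eef1a1, which brings aminoacyl-tRNA to the ribosome, had 0.645 and 0.424, the highest mean rho among the 948 other genes. Eef1b2, its exchange factor, had 0.447 and 0.461. Tpt1, a TOP mRNA for a growth-related protein, had 0.290 and -0.267 and so differed in sign between captures. The list of ribosome biogenesis genes, whose products make and assemble ribosomes, had medians of 0.0697 and 0.0377, with 24 and 21 of its 30 genes positive; Nop56, a box C/D snoRNP protein, had 0.228 and 0.252. Its genes are low, with a median mean level of 1.66. The 11 regulators of TOP mRNA translation, among them Larp1 (-0.00642 and 0.107) and Mtor (0.156 and -0.0230), had medians of 0.0285 and 0.0562. The medians over those 948 genes were -0.0201 and -0.0528, with 432 positive in March and 356 in April. Their median mean level was 3.91, against 6.22 for the list of elongation factors and TOP mRNAs.

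By the same measure, the 10 genes that followed most closely, out of the 948, included Eef1a1, Gm9701, Gm10076, Rpl15-ps3, Gm2000, Gm5148, Eef1b2, Zbtb11 and Rps16-ps2. Of these, Gm9701, Rpl15-ps3, Gm2000 and Rps16-ps2 are copies of Rps23, Rpl15, Rpl35 and Rps16, and Gm10076 holds the Rpl41 coding sequence. The mean ribosomal level includes the rows of those parent genes, with which the copies share sequence. Between a gene's own row and its summed copies, rho was 0.843 and 0.881 for Rps23 and 0.614 and 0.633 for Rpl15. It was 0.861 and 0.839 for Rpl35 and 0.343 and 0.592 for Rps16. The part of this in the copies' place was not tested. Rpl15-ps3 had 0.652 and 0.317, and Zbtb11, a zinc finger gene, had 0.484 and 0.399. At the other end were Igf2bp3 (-0.495 and -0.479), Tcf7l2 (-0.548 and -0.403), Nagk, Klhl31, Snhg11, Dpf1, Prr15, Eva1c, Mmachc and Gm13423, all of negative rho in both captures. Igf2bp3 and Dpf1 had means of only 1.19 and 0.90 despite values above 0 in at least 90% of cells. The 10 T cell markers had median rho of 0.147 and 0.0202. Of the 8 B cell markers, 4 were in the table, with median rho of -0.215 and -0.0659 and with 1 positive in March and 2 in April. Ebf1 had -0.369 and -0.167, Cd22 -0.231 and -0.132, Pax5 -0.198 and 0.0382, and Ighm 0.0222 and 0.000326. The mean levels of these 4 were 1.86, 1.41, 0.43 and 3.10. The B cell markers Cd79a, Cd79b and Ms4a1 were not analysed here, and the part of such signal in these relations was not tested.

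Runs of C and T near the start site, the kind of tract that gives TOP mRNAs their name, were more frequent in members than in other genes. RefSeq promoter windows (GRCm38.p6, 250 bases before to 50 after the annotated start) were matched by symbol for 57 of the 81 members, with 68 windows. On the transcribed strand, the longest unbroken run of C and T that touches the 5 bases on either side of the start had a median length of 6 in members and 4 in the 8520 other genes of the table with a window. A run of at least 5 was found for 33 members, 57.9%, and for 36.5% of the other genes. A run of at least 8 was found for 23 members, 40.4%, and for 12.1% of the other genes and 11.0% of all 27025 genes with a window. Many members thus had no long run, and a run counted here can lie mostly before the start, so it need not begin the message. The letters CTTTCC, searched on both strands of the whole window, were found for 49.1% of members and 29.3% of all genes. The letters CCGGAA, the core bound by ETS factors, were found for 56.1% and 16.7%, and GCCATNTT, close to the YY1 motif, for 19.3% and 6.96%; against the other genes of the table the last 2 shares are 32.5% and 10.6%. CTTTCC, itself all C and T, can lie inside such a run. A match is a description of the letters, and RefSeq starts can be off by some bases. The lines below give 15 bases on either side of the start, with the run in capitals, for 4 members with a long run, the paralogue Rpl22l1, which has one too, and 2 members with a run of at most 2.
Rps18 (chr17:33955651-33955680, minus strand): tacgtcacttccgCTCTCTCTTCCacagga
Rps6 (chr4:86857353-86857382, minus strand): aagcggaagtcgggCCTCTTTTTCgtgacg
Rplp2 (chr7:141447636-141447665, plus strand): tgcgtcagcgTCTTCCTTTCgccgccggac
Rpl35 (chr2:39005117-39005146, minus strand): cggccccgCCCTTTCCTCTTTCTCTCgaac
Rpl22l1 (chr3:28805493-28805522, plus strand): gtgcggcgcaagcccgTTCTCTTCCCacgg
Rps3 (chr7:99483695-99483724, minus strand): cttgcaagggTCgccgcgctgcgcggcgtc
Rpl7l1 (chr17:46782642-46782671, minus strand): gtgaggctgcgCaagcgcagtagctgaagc
Of these 7, the coordinated members Rps18 and Rps6 carry runs of 11 and 10, but Rps3, also among the coordinated members (median rho 0.274 and 0.178), has one of 2, and Rpl22l1, with a run of 10, has a median rho of 0.0873 and 0.111. Rpl7l1, the least coordinated member, has a run of 1.

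A lower ribosomal share went with a higher mitochondrial share of the cell's signal. Spearman rho was -0.336 in March (82 cells) and -0.157 in April (96 cells). By run it was -0.301 in Mar1, -0.340 in Mar17, -0.134 in Apr13 and -0.315 in Apr21, negative in all 4. Both shares are parts of 1 total per cell, which ties them to each other. With the ribosomal share taken over the non-mitochondrial signal only, rho was -0.192 and -0.0352, and by run -0.0531, -0.251, 0.00174 and -0.198. The relation thus shrank towards 0 in every run when the shared total was removed, and in Apr13 it was near 0. Leaving out the 3 Mar1 cells with a mitochondrial share above 50% changed the Mar1 value from -0.301 to -0.0548 and the March value from -0.336 to -0.268. Without the 6 cells of low mean ribosomal level, rho as the mean of the captures was -0.170 instead of -0.246. Those 6 cells had mitochondrial shares of at least 23.4%, where the median over all cells was 8.06%. Of single members, 4 of 81 had a positive rho with the mitochondrial share in March and 17 in April, with median rho of -0.180 and -0.0785. These single-gene values keep the shared total, and the same count over all genes was not made, so they are not read as particular to the members. Of the strongly coordinated members, Rps19 had -0.278 and -0.152, and Rps29 had -0.217 and 0.0129.

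**Figure D4:**
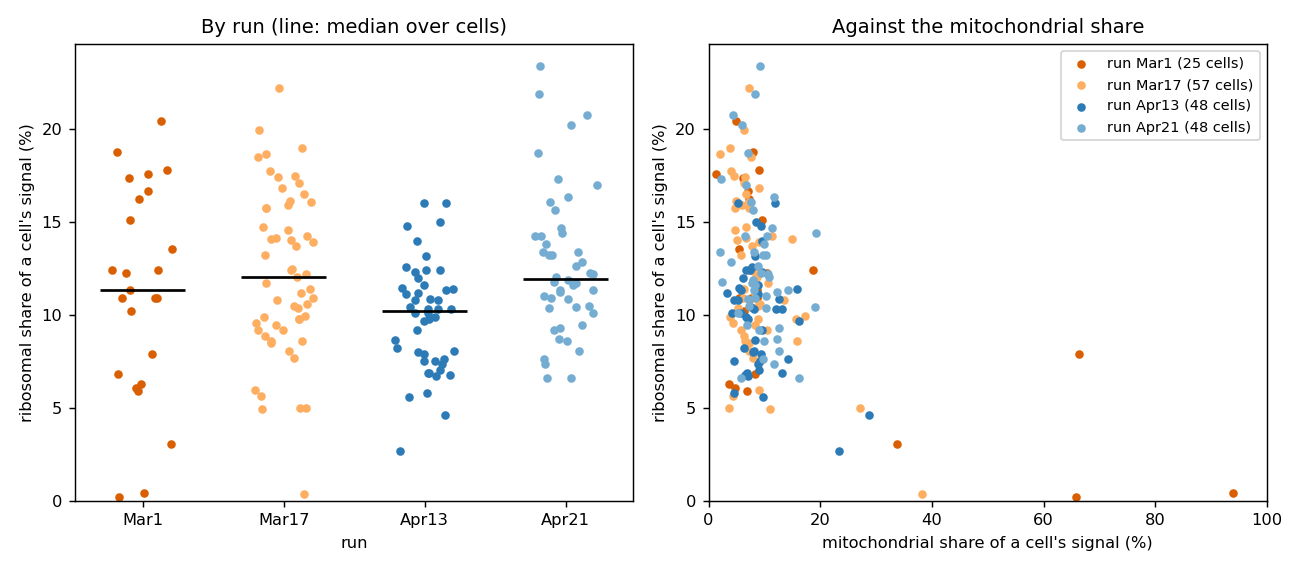
Left, ribosomal share of each cell's signal (y axis, percent) by run, with a line at the run's median; right, the same share against the mitochondrial share (x axis, percent), 1 dot per cell. Medians lie between 10.2% and 12.1%, and the few cells with mitochondrial shares above 20% all lie below a ribosomal share of 8%.

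Cells with and without a Klf2 value were compared next, since Klf2 is the gene of the series' title. March held 43 Klf2-positive and 39 Klf2-negative cells and April 46 and 50. A class rests on a value above 0, so a Klf2-negative cell may hold undetected Klf2. A Klf2-positive cell may in turn hold very little. The median Klf2 level of that class was 2.70 in March and 1.64 in April. Many of its cells had a level below 1, down to 0.26, which is a linear value below 1. The ribosomal share had a median of 11.4% in Klf2-positive and 12.3% in Klf2-negative March cells, and of 11.5% and 10.4% in April, so the order was opposite in the captures. Mean levels per capture and class were tested with limma over the 10795 genes found in 10% of cells or more, all 81 members included. No member passed an adjusted p of 0.05 (Benjamini-Hochberg over all genes); 1 of the 10795 genes did, 0.00926%, and that gene was Klf2 itself, which defined the classes. At an unadjusted p under 0.05, 7 members passed, 8.64%, against 6.48% of all genes tested. All 7 were higher in Klf2-positive cells, where 2.62% of all genes tested passed in that direction, and no member passed in the lower direction, where 3.85% did. The count of 7 moved with the settings of the same limma fit. It was 0 without run Mar1, against 6.85% of all genes. Without the 3 cells with a mitochondrial share above 50% it was 2 (2.47% against 6.68%). It was 1 without the capture block (1.23% against 3.51%) and 3 with the 4 runs as blocks (3.70% against 5.36%). On the log2 of mean linear values it was 4 (4.94% against 4.81%). The count stayed at 6 to 8 with no detection filter, copies added, quantile normalization, mitochondrial genes left out or a pseudocount of 10. These were 7.41% to 9.88% of members, against 5.63% to 6.90% of all genes. The count rose in 1 other setting. It was 19, or 23.5% against 6.85% of all genes, with Klf2-positive set at a linear value of at least 1. The smallest adjusted p of any member was 0.594 (limma).

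Among these 7 were Rps16, Rpl14, Rplp1, Rpl23a, Rpl19 and Rps29. Rps16, a small subunit protein near the decoding site, had means of 10.22 in Klf2-positive and 8.74 in Klf2-negative March cells and of 9.85 and 9.19 in April. Its difference was 1.07 ± 0.34 (SE, limma, adjusted p = 0.594). By run the Rps16 difference was 2.78, 0.90, 0.53 and 0.76 in Mar1, Mar17, Apr13 and Apr21, so it was positive in all 4, largest in Mar1. Rpl14, a large subunit protein, had means of 8.91 in Klf2-positive and 8.18 in Klf2-negative March cells and of 9.77 and 8.61 in April. Its difference was 0.94 ± 0.37, positive in all 4 runs. The other differences were 0.66 ± 0.29 for Rplp1, 0.66 ± 0.29 for Rpl23a and 0.67 ± 0.31 for Rpl19. On the log2 of mean linear values these differences were smaller, at 0.25 for Rps16, 0.27 for Rpl14, 0.40 for Rplp1, 0.21 for Rpl23a and 0.22 for Rpl19. In April alone Rps16 had 0.65. Without run Mar1 Rplp1 had 0.42, without the 3 cells with a mitochondrial share above 50% it had 0.44 and Rpl23a 0.36, and with the linear Klf2 threshold of 1 Rplp1 had 0.23. The 6 members lower in Klf2-positive cells with the smallest p were Rpl22, Rpl27a, Rpl9, Rpl7a, Rps13 and Rpl12, with differences from -0.55 to -0.28 and adjusted p of at least 0.925 (limma). Rpl22 had means of 6.32 in Klf2-positive and 6.94 in Klf2-negative March cells and of 6.77 and 7.25 in April. It was lower in the Klf2-positive cells of all 4 runs, with differences from -0.67 to -0.59, with an SE of 0.46. None of these differences passed the test. With a Klf2-positive cell defined by a linear Klf2 value of at least 1, the Rpl22 difference was 0.49, of the opposite sign. On the log2 of mean linear values Rpl22 had -0.33, and the other 5 ranged from -2.47 for Rpl12 to 0.36 for Rpl27a.

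As a group, the members' differences did not hold across runs. Of 81, 57 were higher and 24 lower in Klf2-positive cells, with a median difference of 0.23 against -0.0267 over all genes tested. They were higher in both captures for 39 members, 48.1%, against 22.2% of all genes, and lower in both for 8, 9.88%, against 28.8%. The median was 1.21 in Mar1, -0.21 in Mar17, 0.22 in Apr13 and 0.25 in Apr21. Without the 3 cells of Mar1 with a mitochondrial share above 50%, all 3 of which were Klf2-negative, the median difference was 0.0182, and 43 members were higher and 38 lower. Over all genes tested the median was then -0.0443, with 42.7% higher. Without run Mar1 the members' median was -0.0549, with 36 higher and 45 lower. Over all genes tested it was then -0.0559, with 41.4% higher. The sign of the group's median was thus opposite without Mar1, where it lay close to the median of all genes. Of the 10 T cell markers in the same fit, 4 were higher and 6 lower in Klf2-positive cells, 3 of them at an unadjusted p under 0.05, and their part in the result was not tested. Over cells, rho of the mean ribosomal level with the Klf2 value was -0.0298 in March and 0.178 in April, and 0.205, -0.165, 0.0936 and 0.239 by run, so the runs did not share a sign. Single members were positive for 58 of 81 in March and 60 in April, with median rho of only 0.0369 and 0.0833. The same count over all genes was not made, so it is not read as particular to the members. Of the fixed lists, 0 genes passed the same limma test at an adjusted p of 0.05: among 15 elongation factors and TOP mRNAs 8 were higher and 7 lower, and among the 29 ribosome biogenesis genes tested 15 and 14, 2 of them at an unadjusted p under 0.05.

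**Figure D5:**
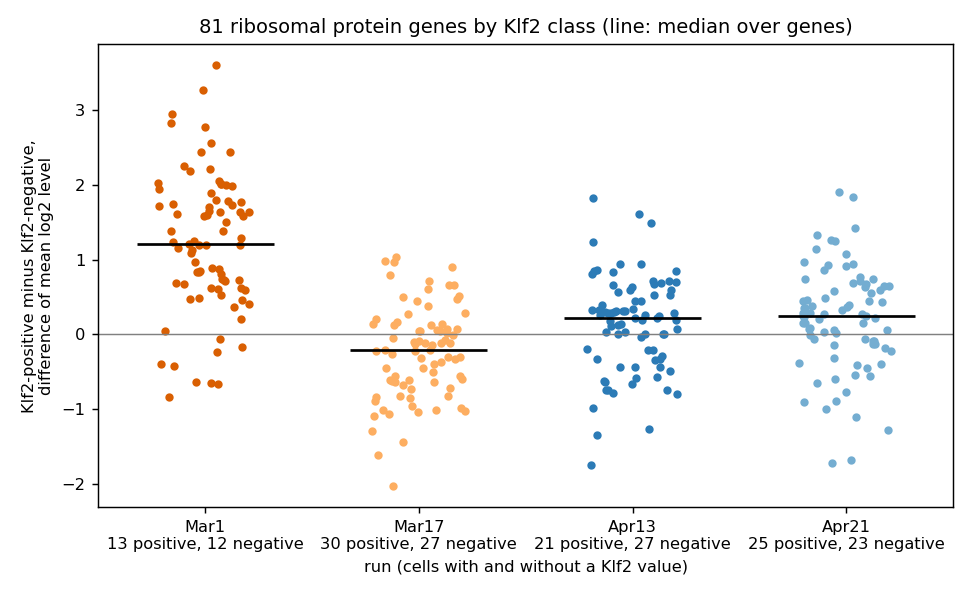
Difference of mean log2 level between Klf2-positive and Klf2-negative cells (y axis) for each of the 81 ribosomal protein genes in each run (x axis, with the number of cells in each class); lines are medians over the 81 genes. The medians are 1.21 in Mar1, -0.21 in Mar17, 0.22 in Apr13 and 0.25 in Apr21.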

How the data were processed

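The values analysed were the authors' deposited table of log2 levels for 12432 genes in 178 cells, with columns named by run and cell; the build was mm10, per the submitters' processing notes. The unit was read from the values: undoing log2(value + 1) gave totals of 892206 to 979888 per cell, close to a TPM total, and the lowest values fell with transcript length. No source used here gives the aligner, counter or cell filters, there are no molecular identifiers, and no doublet caller was run. Ensembl identifiers were matched to symbols for 12163 genes and not for 269. The members and lists were chosen with earlier results of these data known. Shares were computed on linear values, with a pseudocount of 1 for logs. Copies were found with BLAST 2.17.0 on the GENCODE transcripts. For Klf2, a gene detected in a cell was a value above 0; mean log2 levels per capture and class were tested with limma 3.58.1 (R 4.3.3), with the capture as a block and a trend of variance on mean, and p-values were adjusted by Benjamini-Hochberg at 0.05, on 4 such means and 1 residual degree of freedom. A check on simulated data drew genes independently and planted differences larger than any found for a member. It therefore does not show whether differences of the members' size would be found. Both classes of a block come from the same capture, which is the pairing. Correlations over cells were computed within each capture, with no p. The members named for Klf2 were the 6 higher and 6 lower with the smallest p, and otherwise those of highest and lowest level, correlation or capture difference; a few of these are not reported here. Alternatives were other normalizations, thresholds, blocks and subsets of cells; adding the copies and leaving out the 6 cells of low mean ribosomal level were chosen after seeing the data.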

Additional observations from a re-analysis of the deposited data

How the results depend on the processing

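No ribosomal protein gene was called by limma in any of the 11 alternatives, where 0 or 1 of all genes tested was called. The count of 0 is thus not particular to the members. Without the replicate block by capture the number of members called was also 0 and the median Klf2 difference 0.23. That median difference was 0.23 as reported and 0.33 with the 4 runs as blocks, 0.44 with Klf2-positive set at a linear value of at least 1, 0.0182 without the cells with a mitochondrial share above 50%, 0.18 with copies added, 0.0952 on the log2 of mean linear values, 0.17 without mitochondrial genes, 0.16 with a pseudocount of 10, 0.13 after quantile normalization and -0.0549 without run Mar1. With 1 capture left out it ranged from 0.20 to 0.26. The signs of 4 named members turned: with Klf2-positive at a linear value of at least 1, Rpl22 came to 0.49, Rpl27a to 0.24 and Rpl9 to 0.14. Rpl27a came to 0.36 on the log2 of mean linear values, and Rpl12 to 0.19 with copies added, and by capture Rpl12 ranged from -0.75 in April alone to 0.0679 in March alone. The median ribosomal share was 12.4% without mitochondrial genes in the total and 13.5% with copies added, and 11.1% to 11.9% by single capture. The rank correlation with the mitochondrial share, -0.246 as the mean of captures, was -0.114 without mitochondrial genes in the total and -0.400 by Pearson, and -0.336 to -0.157 by capture. That with Klf2, 0.0740, was -0.0298 to 0.178 by capture. The median rho between members kept its sign in all 12 alternatives, from 0.121 to 0.224. Calls with 1 capture left out were not run, since no residual degrees of freedom remain. The causes of these changes were not tested. The depth behind each value is unknown, so a 0 may be an undetected message.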
